A study of Mus musculus with 4 samples.

Results

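The mouse Cyp4a genes encode cytochrome P450 enzymes that hydroxylate the far, omega end of fatty acids. The 6 genes Cyp4a10, Cyp4a12a, Cyp4a12b, Cyp4a14, Cyp4a31 and Cyp4a32 were found by symbol among 56953 gene rows, and all 6 passed the filter on low counts that left 14600 genes for testing. Their transcripts were measured in 4 liver libraries from mice fed a normal diet and aged 2 months. All 4 carried Ubc13 flox/flox alleles. The 2 control libraries were Alb negative and are labelled WT, although their alleles are floxed too. The 2 deletion libraries were Alb positive, which the labels equate with a hepatic deletion of Ubc13; the driver line is not described further, so which cells lost the gene is not stated beyond the word hepatic. Liver is the labelled source, but the protocol for the libraries speaks of primary hepatocytes. The labels number the libraries 1 and 2 in each group without saying that these were separate animals, so a p-value here measures only the spread between these libraries.

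Omega-hydroxylation is a side route of fatty acid breakdown. The product is oxidised by alcohol and aldehyde dehydrogenases to a dicarboxylic acid, which peroxisomes then shorten by beta-oxidation, and the same enzymes hydroxylate arachidonic acid. Cyp4a10 and Cyp4a14 are classical targets of PPARA, the nuclear receptor that senses fatty acids in hepatocytes and pairs with RXRA on DNA, and their transcripts rise strongly in fasting and after fibrate drugs. Cyp4a12a and Cyp4a12b are known in mouse liver and kidney for male-biased expression, which follows androgen and pulsatile growth hormone.

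The genes form a cluster on chromosome 4 of GRCm38, between 115299046 and 115621602, a stretch of 323 kb. In order, Cyp4a12a (ENSMUSG00000066071) spans 115299046 to 115332815, Cyp4a12b (ENSMUSG00000078597) 115411624 to 115439034 and Cyp4a14 (ENSMUSG00000028715) 115486200 to 115496142. They are followed by Cyp4a10 (ENSMUSG00000066072) at 115518264 to 115533649, Cyp4a31 (ENSMUSG00000028712) at 115563649 to 115579015 and Cyp4a32 (ENSMUSG00000063929) at 115600969 to 115621602. Cyp4a14 lies on the minus strand and the other members on the plus strand. Each has 12 exons in the longest coding transcript of GENCODE M21, except Cyp4a10 with 13. The members fall into 3 groups by sequence, which matters because reads of close copies can be exchanged. Coding sequences were 97.2% identical between Cyp4a10 and Cyp4a32, 96.6% between Cyp4a10 and Cyp4a31, 96.0% between Cyp4a31 and Cyp4a32, and 98.5% between Cyp4a12a and Cyp4a12b. Cyp4a14 was 75.0% to 75.9% identical to each of the other members. The last 75 coding bases before the stop codon, as long as 1 read, are shown from the GENCODE transcripts to make these groups visible. Capitals mark bases that differ, position by position, from Cyp4a10 in the first 4 sequences and from Cyp4a12a in the last.
Cyp4a10, chr4:115532622-115532696, plus strand: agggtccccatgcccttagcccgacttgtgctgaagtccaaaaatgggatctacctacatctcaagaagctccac
Cyp4a31, chr4:115578027-115578101, plus strand: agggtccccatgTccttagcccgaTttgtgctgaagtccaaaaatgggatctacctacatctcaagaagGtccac
Cyp4a32, chr4:115621525-115621599, plus strand: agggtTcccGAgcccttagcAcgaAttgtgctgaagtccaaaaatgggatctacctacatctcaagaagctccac
Cyp4a14, chr4:115487146-115487220, minus strand: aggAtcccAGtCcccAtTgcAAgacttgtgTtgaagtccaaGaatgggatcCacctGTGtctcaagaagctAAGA
Cyp4a12a, chr4:115331925-115331999, plus strand: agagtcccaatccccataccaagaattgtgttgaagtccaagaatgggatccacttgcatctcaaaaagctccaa
Cyp4a12b, chr4:115438148-115438222, plus strand: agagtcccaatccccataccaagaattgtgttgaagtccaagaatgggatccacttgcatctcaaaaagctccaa
In this stretch Cyp4a31 differed from Cyp4a10 at 3 bases, Cyp4a32 at 5 and Cyp4a14 at 18, while Cyp4a12b differed from Cyp4a12a at 0.

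The libraries were read at the 3' end of each transcript, so the similarity of transcript ends bears on single values. Of the 426 windows of 75 bases in the last 500 annotated bases, Cyp4a14 shared 0 with any other Cyp4a transcript. Cyp4a10 and Cyp4a31 shared 2 of 426 (0.469%), although these ends were 93.0% identical over the alignment. Cyp4a12a and Cyp4a12b shared 139 of 426 (32.6%) with each other. Cyp4a32 shared 235 of 426 (55.2%) with Cyp4a10 or Cyp4a31. Its M21 transcript ends at the stop codon, with 0 bases of 3' untranslated region, where Cyp4a10 has 521 and Cyp4a14 has 943; the RefSeq gene extends 905 bases further. The annotation used in the authors' counting is not given in the sources used here, so the counts of Cyp4a32 may hold a part of its reads and some of those of its copies. Windows were matched exactly and at any position of the other transcripts, not only at their ends. How the deposited counts treated reads with several matches is not known.

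The promoter table from RefSeq (GRCm38.p6) held 1 of the 6 members, Cyp4a32, with 250 bases before and 50 after the start. It held no exact AGGTCANAGGTCA, the direct repeat that PPARA and RXRA bind, on either strand, none with up to 2 mismatches and no AGGTCA half-site. Of all 32851 promoter windows, 0.0396%, 3.86% and 16.3% held these patterns; every exact repeat also contains the half-site. These letters were searched in this window only.

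Total counts ranged from 16270424 to 17800138 per library. Ube2n, the gene of Ubc13, had 41.3 and 44.9 CPM in control livers and 5.88 and 5.97 CPM in Ubc13-deleted livers (log2 change -2.86 ± 0.16, edgeR adjusted p = 0.00188). CPM is the count relative to a library size scaled by TMM, a method that assumes most genes are equal between libraries, and a log2 change is the deletion group over the control group. Sex-linked transcripts differed between the groups: Xist had 9 and 2 counts in control livers and 9590 and 3896 in Ubc13-deleted livers. The summed CPM of 4 Y-linked genes, relative to the control mean, was 0.969 and 1.03 in control livers, 0 in deletion replicate 1 and 0.613 in deletion replicate 2. Deletion replicate 2 thus held both Y-linked transcripts and Xist, at 200.5 CPM where deletion replicate 1 had 527. Whether its RNA came from a single animal is not given in the labels and was not tested. Summed markers of hepatocytes (9 of 10 listed symbols found) took 150200 and 145700 CPM in control livers and 66830 and 64980 CPM in Ubc13-deleted livers. Albumin, with 119000, 115000, 45310 and 42890 CPM, made up most of this sum. Of the 9 markers tested, 1 was called lower (Ttr) and 0 higher by edgeR, 4 were lower and 0 higher by unadjusted p under 0.05 and by DESeq2, and the median log2 change was -0.20. Macrophage markers summed to 404 and 537 CPM in control livers against 826 and 651 CPM, and cholangiocyte markers to 134 and 64.8 against 1353 and 1947 CPM, of which Spp1 made up 1327 and 1916. All 8 macrophage markers had positive log2 changes (median 0.61), with 6 higher by unadjusted p under 0.05 and 2 by DESeq2. By edgeR 1 was called, Cd5l, which ended without control replicate 1 (adjusted p = 0.0756) or deletion replicate 1 (0.199) or 2 (0.126). Of 8 cholangiocyte markers Spp1 and Sox9 were called higher, but 5 were negative and the median was -0.81, with 2 lower by unadjusted p and 0 by DESeq2. Of 8 stellate markers 0 were called by edgeR or DESeq2 (1 higher and 1 lower by unadjusted p). Of 8 endothelial markers 0 were called by edgeR and 1 lower by DESeq2 (3 lower and 0 higher by unadjusted p). Ttr was not called without deletion replicate 2 (0.0963). The duct keratin Krt19 had 39.2 CPM in control replicate 1 and 2.91 to 3.96 CPM in the other libraries.

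Cyp4a14, Cyp4a10 and Cyp4a32 fell in the deletion livers, by 11.3-fold, 7.26-fold and 4.58-fold. Cyp4a31, Cyp4a12a and Cyp4a12b did not pass the test. The test was edgeR's quasi-likelihood F test with Benjamini-Hochberg adjustment over all 14600 genes, and a gene was called at an adjusted p under 0.05. Of the 6 members 3 were called, where 6.57% of all tested genes were called in either direction. All 3 were lower (2.16% of all genes) and 0 were higher (4.41%). At an unadjusted p under 0.05, 4 members were lower and 0 higher. DESeq2 also called 4 lower and 0 higher, and it called 1558 genes in all, where edgeR called 959. The percentages above are for edgeR's adjusted p only. They are no background for unadjusted or DESeq2 counts, here or for the other gene lists. No share of all genes by direction is given for those counts, so they do not show an excess in any list. The median log2 change was -1.48 over the 6 members and 0.00 over all tested genes. In bulk tissue, fewer cells of a type and less RNA per cell cannot be told apart.

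**Figure D1:**
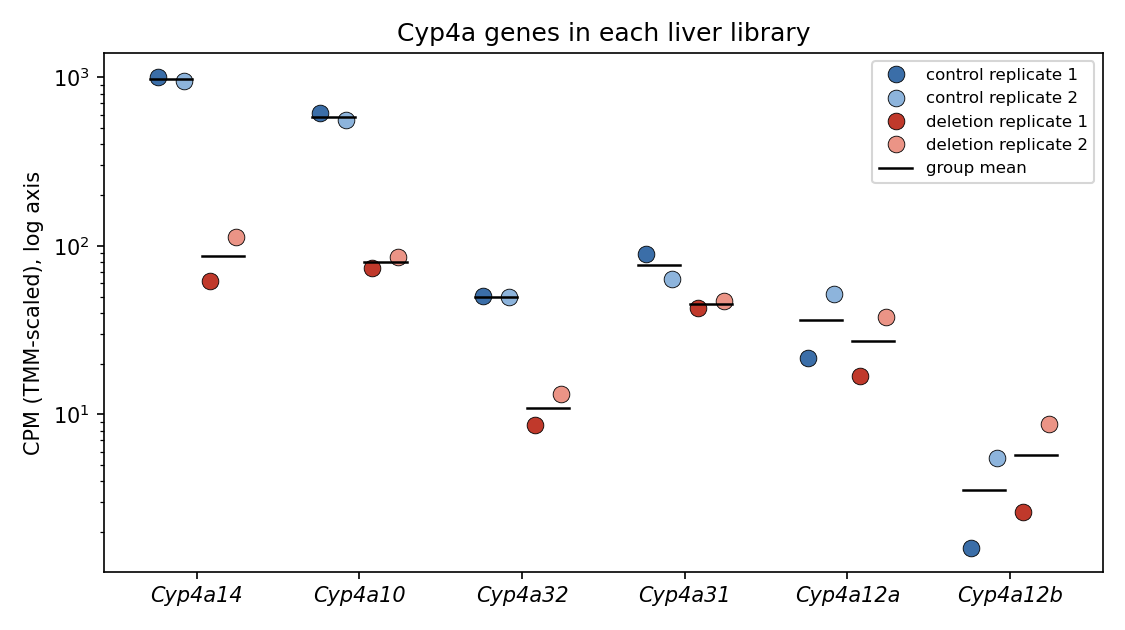
Level of each Cyp4a gene in CPM scaled by TMM factors, on a log axis, with 1 point per library and a line at each group mean (n = 2). The deletion points of Cyp4a14, Cyp4a10, Cyp4a32 and Cyp4a31 all lie below the controls, while those of Cyp4a12a and Cyp4a12b overlap them, and Cyp4a12a and Cyp4a12b are higher in replicate 2 of both groups.

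Cyp4a14, which is known for its strong induction by PPARA ligands, had 16335 and 13802 counts in control livers and 1122 and 2177 in Ubc13-deleted livers. In CPM these were 1008 and 948 against 61.7 and 112, with means of 978 ± 42 and 86.9 ± 35.6 (SD, n = 2). Both deletion libraries lay far below both controls, and deletion replicate 2 was 1.82 times deletion replicate 1. The log2 change was -3.49 ± 0.32 (SE; edgeR adjusted p = 0.00545; lower in 2 of 2 libraries). It ranged from -3.99 without deletion replicate 2 to -3.14 without deletion replicate 1. Leaving out a library leaves an arm of 1, whose spread is assumed to be that of the other group. The number of all genes called also moved in these fits. A call kept, lost or gained in such a fit therefore says little about stability, here and for the other genes. None of the 426 windows at its 3' end occurred in another gene of M21.

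Cyp4a10, the other classical PPARA target, had 9879 and 8058 counts in control livers and 1349 and 1671 in Ubc13-deleted livers. These correspond to 609 and 554 CPM against 74.1 and 86.0 CPM, with means of 582 ± 40 and 80.1 ± 8.4 (SD, n = 2). The groups stood far apart and the libraries within a group were close. Its log2 change was -2.86 ± 0.18 (edgeR adjusted p = 0.00314; lower in 2 of 2), and it stayed between -2.97 and -2.77 with any 1 library left out.

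Cyp4a32, the near copy of Cyp4a10, had 820 and 718 counts in control livers and 157 and 256 in Ubc13-deleted livers. The levels were 50.6 and 49.3 CPM against 8.63 and 13.2 CPM, again without overlap, and the log2 change was -2.19 ± 0.23 (edgeR adjusted p = 0.00734). With 1 library left out it ranged from -2.53 to -1.93. There were 12.0 and 11.2 Cyp4a10 counts for each Cyp4a32 count in control livers, and 8.59 and 6.53 in Ubc13-deleted livers. Since 55.2% of the windows in its annotated end also occur somewhere in Cyp4a10 or Cyp4a31, its fall may not be independent of theirs. Aligned over the last 500 transcript bases, its end was 45.63% identical to that of Cyp4a10 and 43.35% to that of Cyp4a31. This alignment set coding bases of Cyp4a32 against untranslated bases, since Cyp4a10 and Cyp4a31 have 3' untranslated regions of 521 and 911 bases. These low values therefore do not measure how far the copies differ. The coding sequence of Cyp4a32 was 97.2% identical to that of Cyp4a10 and 96.0% to that of Cyp4a31. How many reads were exchanged was not tested.

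Cyp4a31, another close copy of Cyp4a10, which shares few exact windows with it at the 3' end, had 1455 and 922 counts in control livers and 774 and 916 in Ubc13-deleted livers. The levels were 89.8 and 63.3 CPM against 42.5 and 47.1 CPM. The deletion libraries were lower without overlap, as were 27.3% of all tested genes, and the log2 change of -0.77 ± 0.20 did not pass (edgeR adjusted p = 0.0821). Without control replicate 2 it was -1.0. Cyp4a10 had 6.79 and 8.74 counts for each Cyp4a31 count in control livers and 1.74 and 1.82 in Ubc13-deleted livers. The groups did not overlap in this ratio, which was not tested because 2 libraries against 2 allow no exact p below 0.333.

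Cyp4a12a and Cyp4a12b, the male-biased pair, differed more between replicates than between groups. Cyp4a12a had 350 and 749 counts in control livers and 307 and 733 in Ubc13-deleted livers, or 21.6 and 51.5 CPM against 16.9 and 37.7 CPM. Replicate 2 was 2.38 times replicate 1 in control livers and 2.24 times in the deletion group, and the groups overlapped. Its log2 change was -0.42 ± 0.50 (edgeR adjusted p = 0.67), and the sign turned without control replicate 2 (0.34) or deletion replicate 1 (0.04). The Y-linked share was 0.969 and 1.03 in control livers, 0 in deletion replicate 1 and 0.613 in deletion replicate 2. Cyp4a12a had 21.6, 51.5, 16.9 and 37.7 CPM in the same order. A relation between them was not tested.

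Cyp4a12b had 26 and 80 counts in control livers and 48 and 171 in Ubc13-deleted livers, which are 1.60 and 5.50 CPM against 2.64 and 8.80 CPM. Replicate 2 was again the higher library, by 3.43 times in control livers and 3.34 times in the deletion group. Its log2 change was 0.70 ± 0.73 (edgeR adjusted p = 0.618); it was -0.43 with deletion replicate 2 left out, and 0.06, 1.83 and 1.30 with control replicate 1, control replicate 2 or deletion replicate 1 left out. Since the copies share 32.6% of their ends, they were also summed, giving 23.2 and 57.0 CPM in control livers and 19.5 and 46.5 in Ubc13-deleted livers. The sum did not separate the groups either.

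A sum over the family does not depend on how the counted reads were divided among the copies. It would lack reads with several matches if the counting discarded them, which is not known. Together the 6 genes had 28865 and 24329 counts in control livers and 3757 and 5924 in Ubc13-deleted livers. The family thus took 0.162% and 0.15% of all control counts and 0.0222% and 0.0346% of the deletion counts. In CPM the sum was 1726 ± 77 in control livers and 256 ± 70 in Ubc13-deleted livers (SD, n = 2), a 6.75-fold difference. For Cyp4a10, Cyp4a31 and Cyp4a32 together it was 708 ± 59 against 136 ± 15 CPM, 5.21-fold. No test was run on sums of members.

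The make-up of the family count also differed between the groups, as the plot of shares by library shows. A 3' library gives about 1 read per transcript whatever its length, so these shares are of reads near transcript ends. Cyp4a14 made up 56.6% (exact Clopper-Pearson 95% interval 56.0 to 57.2) and 56.7% (56.1 to 57.4) of the family count in control livers. In the deletion libraries its share was 29.9% (28.4 to 31.4) and 36.8% (35.5 to 38.0). The share of Cyp4a10 was 34.2% and 33.1% in control livers and 35.9% and 28.2% in Ubc13-deleted livers, so this share overlapped between the groups. Cyp4a31 went from 5.04% and 3.79% of the family count to 20.6% and 15.5%, and Cyp4a12a from 1.21% and 3.08% to 8.17% and 12.4%. Cyp4a12b made up 0.0901% and 0.329% in control livers and 1.28% and 2.89% in Ubc13-deleted livers. The share of Cyp4a32 was 2.84% and 2.95% against 4.18% and 4.32%. The intervals cover counting error only. A share is a part of the family total, so it can rise where the level did not. Mean CPM in control and Ubc13-deleted livers was 76.55 and 44.84 for Cyp4a31 and 49.96 and 10.9 for Cyp4a32. For Cyp4a12a it was 36.52 and 27.3, while Cyp4a12b had the higher mean in the deletion group (3.55 and 5.719).

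**Figure D2:**
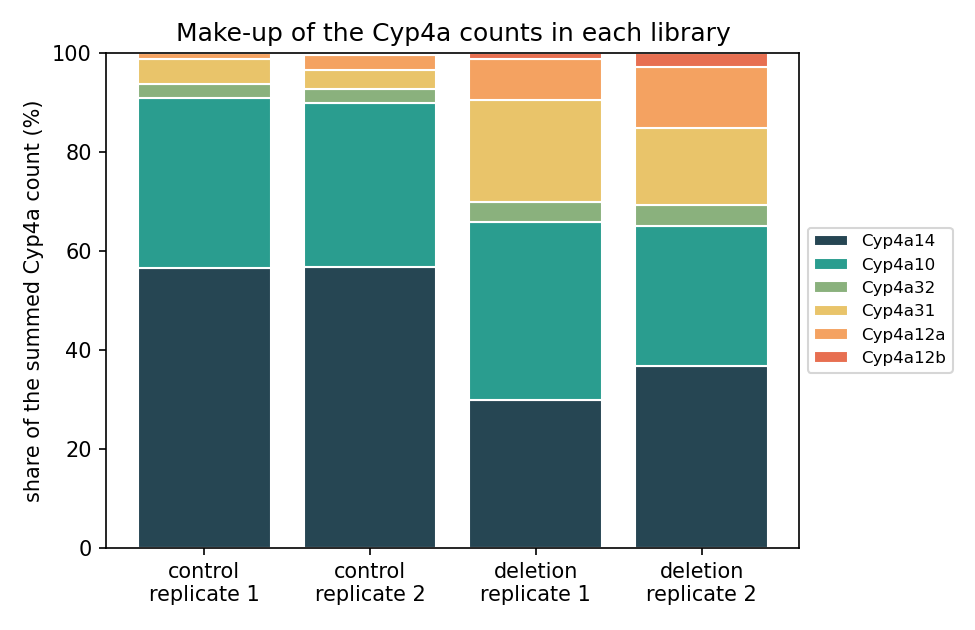
Share of the summed Cyp4a count (%) held by each gene in each of the 4 libraries, as stacked bars. Cyp4a14 holds 56.6% and 56.7% in control livers and 29.9% and 36.8% in Ubc13-deleted livers, and the bands of Cyp4a31 and Cyp4a12a are wider in Ubc13-deleted livers.

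The calls of Cyp4a14, Cyp4a10 and Cyp4a32 ran along with the difference in sex-linked transcripts. With the Y-linked share as a covariate, the log2 changes were -2.60, -2.64 and -1.55 with edgeR adjusted p = 0.0735, 0.0702 and 0.183, so none of the 3 passed. That fit had 1 residual degree of freedom less, and its slope rested mainly on the pair of deletion libraries. Cyp4a14 had 1008 and 948 CPM in the controls, whose Y-linked shares were 0.969 and 1.03. It had 61.7 CPM in deletion replicate 1, with a share of 0, and 112 in deletion replicate 2, with a share of 0.613. A relation between level and share was not tested. Genotype and sex composition cannot be told apart in these 4 libraries.

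**Figure D3:**
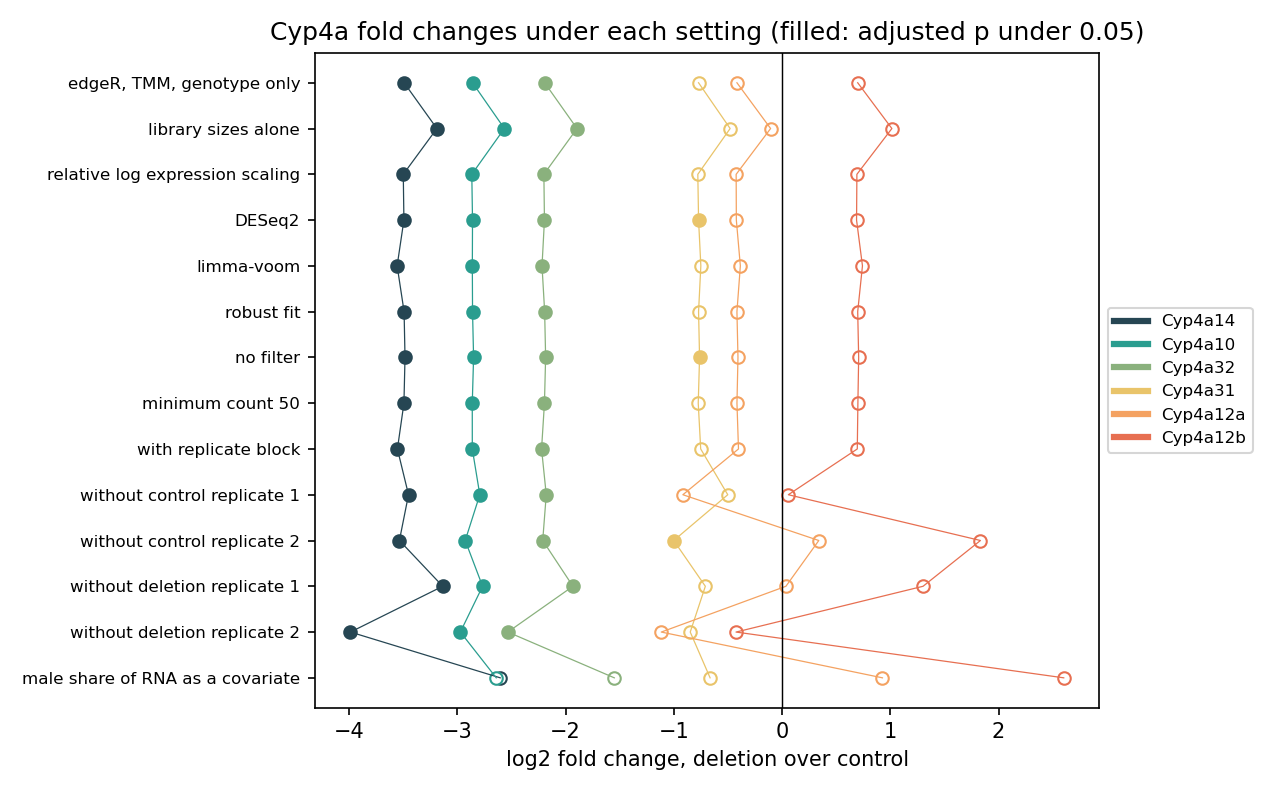
Log2 fold change of each Cyp4a gene (deletion over control) under the reported fit and 13 alternatives, with filled points at an adjusted p under 0.05. Cyp4a14, Cyp4a10 and Cyp4a32 are negative in all of them and unfilled with the male share of RNA as a covariate, while Cyp4a12a and Cyp4a12b cross 0.

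Other Cyp4 genes were measured beside the Cyp4a members. They include omega-hydroxylases of the Cyp4f group, which act on leukotrienes and long-chain fatty acids. Of 14 listed genes 8 passed the filter, and among these 1 fell and 1 rose; 4 were lower and 2 higher by unadjusted p under 0.05, and DESeq2 called 2 lower and 1 higher. Cyp4v3 fell from 276 and 359 CPM in control livers to 181 and 168 CPM in Ubc13-deleted livers, a log2 change of -0.86 ± 0.19 (edgeR adjusted p = 0.0499). It did not pass in edgeR fits with library sizes alone (adjusted p = 0.0855), robust fitting (0.0503) or a replicate block (0.0998). Nor did it pass with the Y-linked share as a covariate (0.483) or in limma-voom (0.0514). It passed in edgeR with relative log expression scaling (0.0489), a minimum count of 50 (0.0439) or no filter (0.000547), and in DESeq2 (0.00166). Its log2 change was -0.66 without control replicate 2, and -0.93 and -0.81 without deletion replicate 1 or 2. Cyp4f16 rose from 5.74 and 5.91 CPM to 16.3 and 15.6 CPM, a log2 change of 1.45 ± 0.19 (edgeR adjusted p = 0.0139). It did not pass with a replicate block (0.0524) or with the Y-linked share as a covariate (0.307). It passed in the other alternatives that kept all 4 libraries. Without deletion replicate 1 or 2 its log2 change was 1.41 and 1.48.

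The other 6 tested genes were not called. Cyp4f14 had 382 and 325 CPM in control livers and 244 and 165 CPM in Ubc13-deleted livers (edgeR adjusted p = 0.101). Its log2 change was -0.79, and it was -0.90 without control replicate 2. DESeq2 called it (adjusted p = 0.0203). Cyp4b1 had 10.3 and 9.69 CPM against 5.99 and 5.2 CPM (adjusted p = 0.088). Cyp4f13, Cyp4f15 and Cyp4f17 had log2 changes of -0.39, -0.32 and -0.47. Cyp4f18, a myeloid member, had 2 and 4 counts in control livers and 17 and 22 in Ubc13-deleted livers (log2 change 2.36 ± 0.61, adjusted p = 0.0779), and the summed macrophage markers were also higher there (404 and 537 against 826 and 651 CPM); their part in it was not tested. Cyp4a29 and Cyp4a30b, also in the Cyp4a cluster, had 0 counts in each library, where 3 counts correspond to 0.154 to 0.206 CPM.

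PPARA itself was measured as a transcript at 100 and 76.3 CPM in control livers and 36.7 and 68.4 CPM in Ubc13-deleted livers. The deletion libraries were lower without overlap, as were 27.3% of all tested genes. The log2 change of -0.75 ± 0.31 did not pass (edgeR adjusted p = 0.209). Without control replicate 2 Ppara was at -0.93, and with the Y-linked share as a covariate its sign turned (0.14). Its partner Rxra had 511 and 444 CPM against 400 and 403 CPM (log2 change -0.25 ± 0.16, adjusted p = 0.407; 0.04 with library sizes alone). Of 18 genes of PPARA, its partners, coactivators and corepressors, 1 fell and 0 rose; 3 were higher and 1 lower by unadjusted p under 0.05, and DESeq2 called 1 higher and 1 lower. The 1 that fell was Lpin1, a phosphatidate phosphatase that also acts as a PPARA coactivator (log2 change -1.19 ± 0.24, adjusted p = 0.0417), and it no longer passed without deletion replicate 1 (0.124) or 2 (0.0591).

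Listed PPARA targets other than Cyp4a changed in both directions. Of 61 listed genes 59 were tested, of which 8 fell and 4 rose and 47 did not pass. These are 8 of 59 against a background of 2.16% lower and 4 of 59 against 4.41% higher. The list's median log2 change was -0.37 and 43 of 59 values were negative, beside a median of 0.00 for all genes. With library sizes alone as scaling, which moved the median of all genes to 0.29, the list's median was -0.08 and the calls were 7 lower and 6 higher. With a replicate block, which called 390 of all genes, they were 2 and 2. By DESeq2, which called 1558, they were 19 and 4. With the Y-linked share as a covariate, which left 65 calls over all genes, both were 0. The reported fit called 959 genes. The list's median log2 change was -0.33 without control replicate 1 and -0.46 without control replicate 2. It was -0.51 without deletion replicate 1 and -0.38 without deletion replicate 2.

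**Figure D4:**
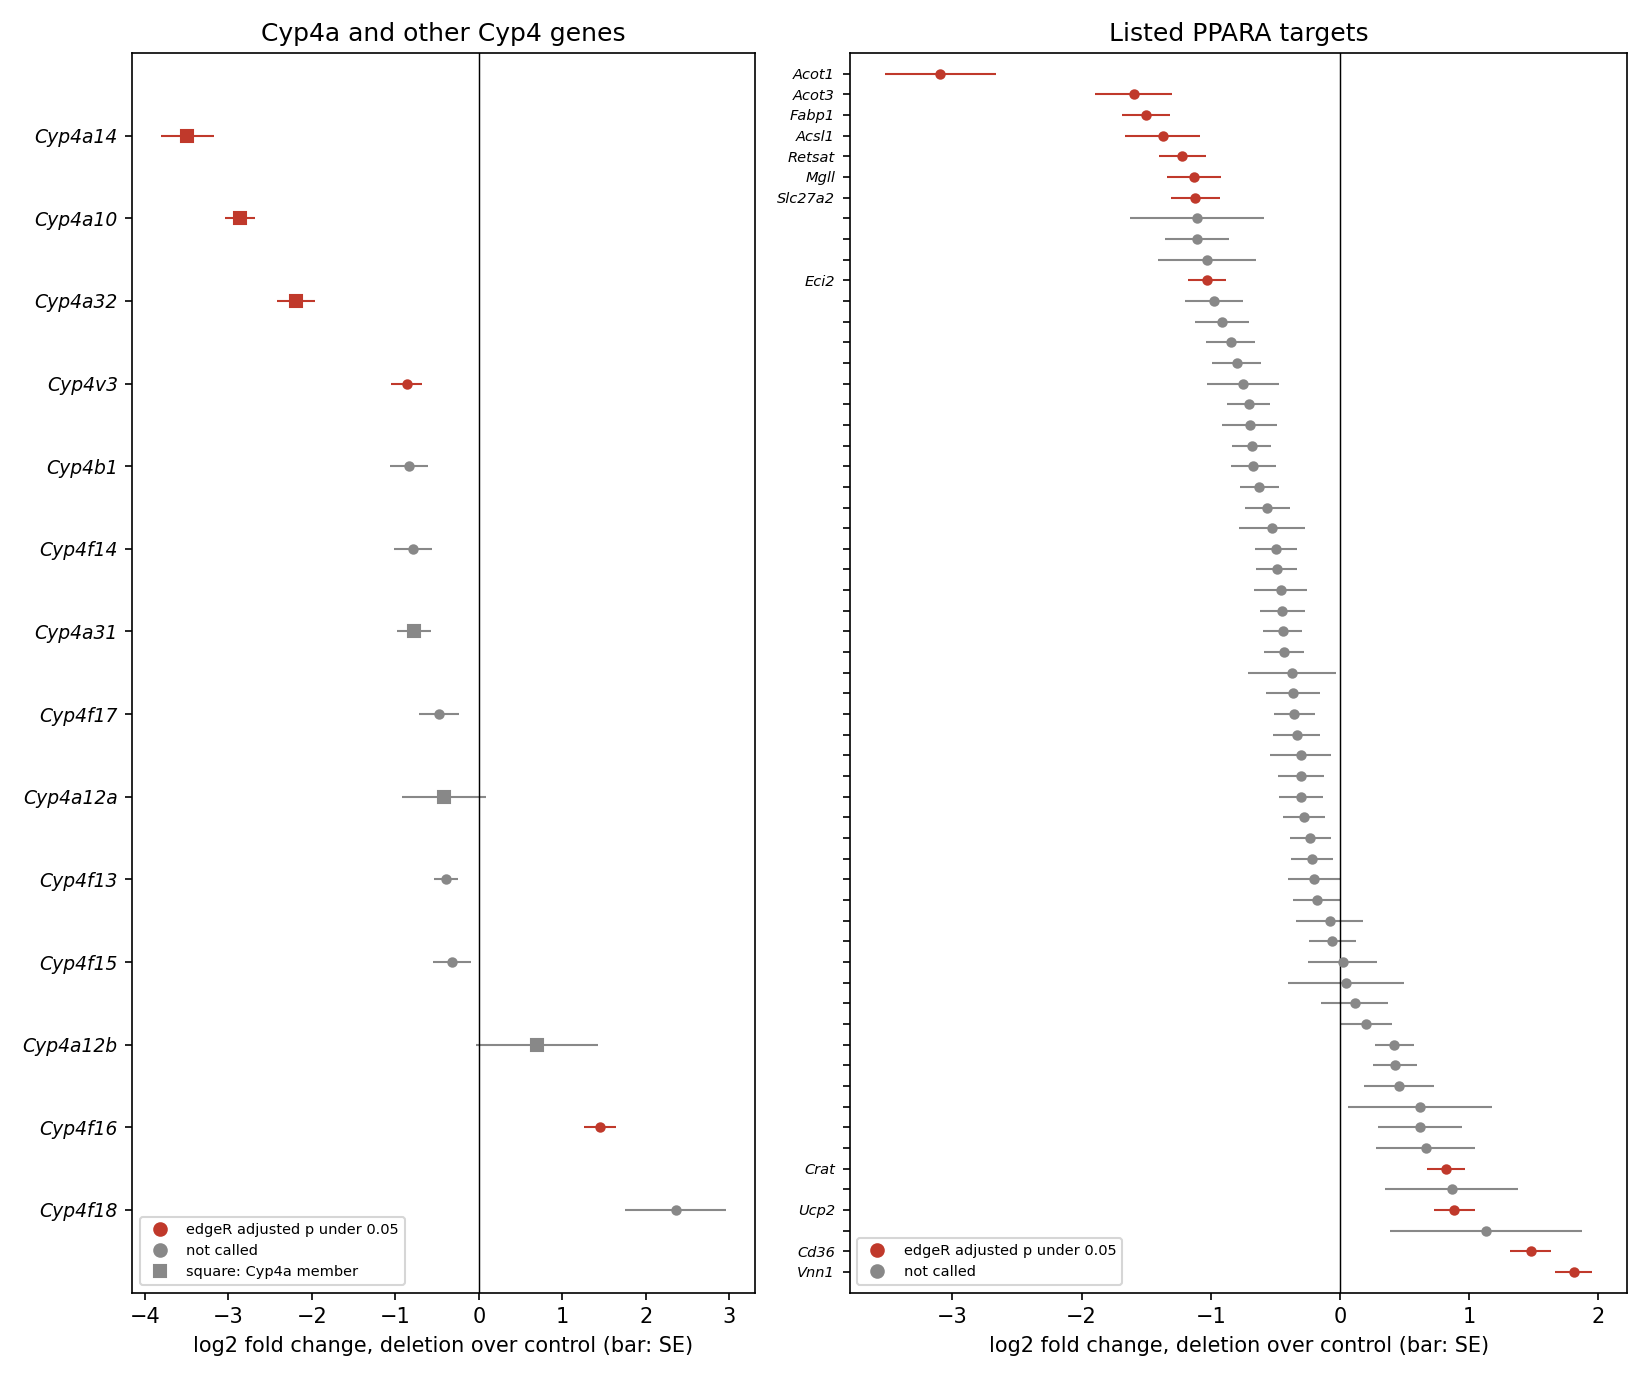
Log2 fold change (deletion over control, with SE bars, n = 2 libraries a group) of the tested Cyp4 genes on the left and the tested PPARA targets on the right, ordered by value, with names on the right for called genes. Red marks an edgeR adjusted p under 0.05: Cyp4a14 at -3.49 and Acot1 at -3.09 are the lowest of their panels, and Vnn1 at 1.81 is the highest PPARA target.

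Among the targets that fell, the acyl-CoA thioesterase Acot1 changed most. It had 27.9 and 58.9 CPM in control livers and 3.79 and 6.33 CPM in Ubc13-deleted livers, a log2 change of -3.09 ± 0.43 (edgeR adjusted p = 0.0154). Fabp1, the main fatty acid binding protein of hepatocytes, had 2866 and 3037 CPM against 1053 and 1029 CPM (-1.50 ± 0.19, adjusted p = 0.0118). With the Y-linked share as a covariate neither passed (0.359 and 0.215). The peroxisomal thioesterase Acot3 (-1.60), the acyl-CoA synthetase Acsl1 (-1.37), the retinol saturase Retsat (-1.22) and the monoacylglycerol lipase Mgll (-1.13) fell as well. These 4 were not called without deletion replicate 2, where their log2 changes were -1.61, -1.07, -1.12 and -0.93 in the same order. Acot3 (-1.59) and Retsat (-1.35) were also not called without deletion replicate 1. With a replicate block, which called 390 genes in place of 959, none of the 4 passed (edgeR adjusted p = 0.0796, 0.0996, 0.0579 and 0.0795).

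In the opposite direction, the pantetheinase Vnn1 rose from 19.2 and 19.5 CPM to 66.9 and 68.7 CPM, a log2 change of 1.81 ± 0.14 (edgeR adjusted p = 0.00402). The fatty acid translocase Cd36 rose from 24.2 and 24.5 CPM to 73.3 and 61.9 CPM (1.48 ± 0.16, adjusted p = 0.008). With the Y-linked share as a covariate neither passed (0.101 and 0.233). The other genes that rose, named after their values were seen, were the mitochondrial carrier Ucp2 (0.89) and the carnitine acetyltransferase Crat (0.82). Cpt1a, the gate of mitochondrial beta-oxidation, was at -0.22 ± 0.16 and was not called (adjusted p = 0.467; chosen after its values were seen).

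The route from the omega-hydroxylated acid onward was covered by 17 genes, nearly all of them also on the PPARA list. Of these 3 fell and 1 rose, while 10 were lower and 1 higher by unadjusted p under 0.05 and DESeq2 called 7 lower and 1 higher. The falls were Acot3, Acsl1 and the acyl-CoA synthetase Slc27a2, which had 1352 and 1374 CPM in control livers and 692 and 564 CPM in Ubc13-deleted livers (log2 change -1.12 ± 0.19, edgeR adjusted p = 0.0266; 0.129 without deletion replicate 2 and 0.0526 with a replicate block). The rise was Crat. Aldh3a2, the fatty aldehyde dehydrogenase that follows the hydroxylases, had 253 and 230 CPM against 320 and 238 CPM and was not called (adjusted p = 0.578; chosen after its values were seen). Of 8 genes for electron donors and haem supply of microsomal P450 enzymes, 0 were called in either direction by edgeR; 1 was higher and 2 were lower at an unadjusted p under 0.05, and DESeq2 called 0 higher and 2 lower. Por is the reductase that feeds electrons to the Cyp4a enzymes. It had 973 and 1287 CPM in control livers and 630 and 472 CPM in Ubc13-deleted livers (-1.04 ± 0.24, edgeR adjusted p = 0.0572). Without control replicate 1 Por was at -1.23, and DESeq2 called it (adjusted p = 0.000509).

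Because sex-linked transcripts differed between the groups, listed sex-biased liver genes are given beside the Cyp4a values. Of 12 male-biased genes 3 fell and 0 rose, with 5 lower and 2 higher both by unadjusted p under 0.05 and by DESeq2. Of 19 tested female-biased genes 4 fell and 0 rose, with 9 lower and 0 higher by unadjusted p and 5 and 0 by DESeq2. The male-biased steroid dehydrogenase Hsd3b5 had 14.6 and 61.8 CPM in control livers and 0.055 and 0.257 CPM in Ubc13-deleted livers (edgeR adjusted p = 0.0135), and the anion transporter Slco1a1 had 113 and 347 against 3.74 and 15.8 CPM (adjusted p = 0.0319). Neither passed in a robust edgeR fit (0.0504 and 0.123), nor Hsd3b5 with limma-voom (0.121). Their log2 changes were -7.84 and -4.55, and with the Y-linked share as a covariate both were at -2.33 (edgeR adjusted p = 0.949 and 0.457). Both lie above their replicate 1 in replicate 2 of each group, as Cyp4a12a and Cyp4a12b do. Susd4, the other male-biased call, had a log2 change of -1.82 (0.105 as adjusted p without deletion replicate 2). Female-biased genes that fell included Hao2 (-3.34), Cyp2b10 (-1.91) and Acot3, of which Hao2 no longer passed without deletion replicate 2 (adjusted p = 0.0608) and Cyp2b10 without deletion replicate 1 (0.0517). With the Y-linked share as a covariate Susd4 was at -2.94, Hao2 at -3.60, Cyp2b10 at -0.75 and Acot3 at -1.64. None of them passed there (edgeR adjusted p = 0.147, 0.234, 0.683 and 0.455), in a fit that called 65 of all genes. The part of sex-biased genes in the Cyp4a values was not tested. Stat5b, which relays growth hormone to these genes, had 61.1 and 75.8 CPM in control livers and 53.6 and 66.2 CPM in Ubc13-deleted livers (adjusted p = 0.588), and of 9 tested regulators of sex-biased expression 0 were called (1 higher and 2 lower by unadjusted p under 0.05, 0 and 2 by DESeq2).

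Genes that mark lobular zones are given because hepatocyte programmes differ along the lobule. Of 10 pericentral genes 2 fell and 0 rose by edgeR; 7 were lower and 0 higher by unadjusted p under 0.05, and DESeq2 called 6 lower and 0 higher. Of 10 periportal genes 4 fell and 2 rose, with 7 lower and 2 higher both by unadjusted p and by DESeq2. The pericentral P450 Cyp2e1 had 7295 and 8041 CPM in control livers and 2265 and 1266 CPM in Ubc13-deleted livers (log2 change -2.12 ± 0.33, edgeR adjusted p = 0.0213). The bile acid enzyme Cyp27a1 fell by 1.06 on the log2 scale and no longer passed without deletion replicate 1 (0.0991) or 2 (0.0949). Of the periportal genes, the histidine ammonia-lyase Hal was at -2.22 (adjusted p = 0.0906 without deletion replicate 2) and the serine dehydratase Sds at -1.46, while the cadherin Cdh1 was at 1.75.

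Profiles most like each member were sought among 8314 tested genes with a mean of at least 10 CPM, by the Euclidean distance between log2 CPM over the 4 libraries after centring each gene. The nearest to Cyp4a10 were Ube2n (distance 0.23), Cyp2c29 (0.27) and Cyp2c37 (0.28). Cyp2c29 had 2013 and 1544 CPM in control livers and 255 and 243 CPM in Ubc13-deleted livers, and Cyp2c37 had 492 and 391 against 48.1 and 70.4 CPM. For Cyp4a14, Cyp2c54 (0.54) and Cyp2c37 (0.70) were among the nearest 3, with a long noncoding RNA gene nearer still (0.39). For Cyp4a32 they included Etnppl (0.34), an ethanolamine-phosphate phospho-lyase, and Fbxo31 (0.42), an F-box protein, beside another long noncoding RNA gene (0.34). Cyp4a31 was nearest to Klb (0.04), the co-receptor of FGF21, Gstt1 (0.06) and the pseudogene Gm29216 (0.08). Cyp4a12a was nearest to Gadd45g (0.37), Il1r1 (0.49) and Tppp (0.50), and Cyp4a12b to Pdk4 (0.45), a PPARA target that had 7.09 and 21.6 CPM in control livers and 14.1 and 29.8 in Ubc13-deleted livers, followed by Nedd4l and Fabp5 (0.88 each). With 4 libraries many genes lie close together, and these distances are a description.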

How the data were processed

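Per the labels' protocols, QuantSeq 3' libraries were read as single-end 75 bp reads, aligned with Bowtie2 and compared with edgeR under TMM and CPM; the submitters' processing notes name mm10 and GRCm38. Counting program, strand setting, multi-match handling and annotation: not given in the sources used here. Per the labels, the authors deposited raw counts for 56953 Ensembl genes in 4 columns, mapped by the labels. Symbols came by identifier from GENCODE M21 (52029 rows matched; 66 rows with a repeated symbol kept their identifier).

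Groups were compared with edgeR 4.0.16 in R 4.3.3 (TMM, filterByExpr with a minimum count of 10 and total of 15, genotype only, 2 residual degrees of freedom, prior 4.14), two-sided. SE was obtained by dividing the size of the log2 change by the root of F. CPM is scaled by TMM. The fit was tested on simulated data. Replicates differed beyond sampling noise (chi-square per degree of freedom 38.9 in the controls, 25.3 in the deletion group). Members, gene lists, alternatives and the covariate were chosen with earlier results of these data known. Named were all members, other Cyp4 genes, Ppara, Rxra, Por and Stat5b, the called genes with the largest change of each list (up to 8 PPARA targets, 5 of each sex list, 3 of others), and the 3 nearest profiles of each member. Some genes that this rule covers are not reported here. DESeq2 1.42.0 and limma 3.58.1 were alternatives. Sequence identity was computed with Biopython 1.88 on M21 transcripts.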

Additional observations from a re-analysis of the deposited data

How the results depend on the processing

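Cyp4a14, Cyp4a10 and Cyp4a32 kept their direction under all 13 alternatives and their call under 12; with the male share of RNA as a covariate their log2 fold changes were -2.60, -2.64 and -1.55, 0 members were called lower, and Cyp4a12a was at 0.93. Cyp4a31 became a call with DESeq2 (-0.77, adjusted p = 0.0255) and without a filter (-0.76, 0.0023); with 1 library left out it ranged from -1.0 to -0.50, Cyp4a12a from -1.12 to 0.34 and Cyp4a12b from -0.43 to 1.83. All genes called numbered 959, but 1764 with library sizes alone, 1558 with DESeq2, 2768 without a filter, 65 with the covariate and 343 to 2081 with 1 library left out. PPARA targets called lower numbered 19 with DESeq2, 21 without a filter, 0 with the covariate and 3 to 17 with 1 library left out; those called higher numbered 0 with the covariate and 2 to 5 with 1 library left out. With library sizes alone the sum of Cyp4a12a and Cyp4a12b turned from -0.28 to 0.034 on the log2 scale, and that of Cyp4a10, Cyp4a31 and Cyp4a32 was -2.09 in place of -2.38. Library sizes alone moved the median of all genes to 0.29 and turned Rxra (0.040) and Stat5b (0.11); the covariate turned Ppara (0.14), Stat5b (0.18) and Cyp4f17 (0.19). In the last 250 transcript bases the shared windows were 0% for Cyp4a10 and Cyp4a31 and 40.9% for Cyp4a32. The correlation across genes between the deviations of same-numbered libraries was -0.12. With 2 libraries a group this cannot decide whether they were paired. A replicate block called 390 genes, 2 PPARA targets lower and 2 higher, and the 3 Cyp4a members; the crossed pairing, chosen after seeing the data, called 1366 genes and 4 members. The cause of these shifts was not tested. Among 38 single genes named beside the members, 14 lost their call without deletion replicate 2 and 26 with the covariate. The lowest counts were those of Cyp4f18 (2 to 22) and Cyp4a12b (26 to 171), and fits with 1 library left out take the spread of the lone library from the other group.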
